A study of Mus musculus with 78 samples.

Results

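Interleukin-1 beta (IL-1beta) and tumor necrosis factor alpha (TNF-alpha) are the inflammatory cytokines most often used to model arthritic cartilage in culture, and their late effects on one engineered tissue are set against each other here. The comparison rests on 6 of the 39 mRNA libraries, in a series of 78 samples: 3 libraries of tissue exposed for 72 h to IL-1beta at 1 ng/mL, and 3 of tissue exposed for 72 h to TNF-alpha at 20 ng/mL. The 3 untreated control libraries of the same time, which received no cytokine, give the direction in which each cytokine moved a gene. All 9 libraries came from cartilage grown from mouse induced pluripotent stem cells (iPSCs), chosen only by their labelled cytokine and time. The sources used here do not give the strain, the sex or the iPSC line. Each cytokine was given at a single dose and the doses differ, so every contrast is between these dosed treatments and not between cytokines at matched strength. The labels do not say whether the 3 libraries of a group came from separate cultures, so p-values rest on library-to-library spread alone, which may be technical.

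Both cytokines signal through the kinases that free NF-kappaB, a transcription factor that switches on chemokines, proteases and its own inhibitors. IL-1beta binds IL1R1 and acts through MYD88 and IRAK kinases, whereas TNF-alpha binds TNFR1 and acts through TRADD, TRAF2 and RIPK1. In cartilage both are known for lowering type II collagen and aggrecan, the main components of its matrix, and for raising the enzymes that cut them. Secondary regulators such as C/EBP proteins, NFKBIZ, HIF-1 and NRF2 add further layers of target genes.

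The IL-1beta and TNF-alpha libraries held 16311782 to 33497248 counts and the controls 16241600 to 20545744. Pearson's r of log2 CPM, counts scaled to a common library size, between libraries of a group was at least 0.9974. Mitochondrial transcripts took 0.574% to 0.594% of counts with IL-1beta, 0.568% to 0.610% with TNF-alpha and 0.384% to 0.443% in controls, so both cytokine groups stood above the controls and close to each other. The tissue label matched its markers: the 9 chondrocyte markers tested summed to 14884 to 16155 CPM with IL-1beta, 33178 to 39247 CPM with TNF-alpha and 71986 to 95355 CPM in controls. Single libraries stood apart in interferon-stimulated genes. All 32 such genes were highest in library a among the IL-1beta libraries, with summed levels of 1186 CPM against 311 and 419 CPM in the others. All 32 were also highest in library b among the TNF-alpha libraries, at 1019.8 CPM against 580.1 and 640.4 CPM in the others, while controls held 389 to 513 CPM. The number of interferon-stimulated genes called is therefore given with and without these libraries, whereas single genes are given with all fitted libraries.

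The promoters of 6 genes are printed because their genes carry the main contrasts: acute-phase and cytokine genes far higher with IL-1beta, an integrin ligand far higher with TNF-alpha, and hypoxia genes that the cytokines moved in opposite directions. Each is the 250 bases before a gene start, 5′ to 3′, from RefSeq on GRCm38.p6, with capitals on matches to TTGCNNAA (a C/EBP core) or an NF-kappaB core (GGG and CC with 5 bases of any kind between) in the first 4 and to ACGTG or GCGTG (a hypoxia response core) in the last pair, either strand.
Lcn2, chr2:32387740-32387989, minus strand: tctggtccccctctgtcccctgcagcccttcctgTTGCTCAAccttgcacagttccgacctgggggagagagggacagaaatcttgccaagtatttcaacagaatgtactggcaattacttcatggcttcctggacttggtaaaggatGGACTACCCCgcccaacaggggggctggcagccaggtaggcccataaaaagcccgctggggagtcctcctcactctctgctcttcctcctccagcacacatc
Saa3, chr7:46715677-46715926, minus strand: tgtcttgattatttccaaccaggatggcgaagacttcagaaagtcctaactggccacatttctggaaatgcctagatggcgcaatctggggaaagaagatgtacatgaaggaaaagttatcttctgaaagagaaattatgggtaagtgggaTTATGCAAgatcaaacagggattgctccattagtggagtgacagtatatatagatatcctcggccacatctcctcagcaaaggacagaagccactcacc
Il6, chr5:30012864-30013113, plus strand: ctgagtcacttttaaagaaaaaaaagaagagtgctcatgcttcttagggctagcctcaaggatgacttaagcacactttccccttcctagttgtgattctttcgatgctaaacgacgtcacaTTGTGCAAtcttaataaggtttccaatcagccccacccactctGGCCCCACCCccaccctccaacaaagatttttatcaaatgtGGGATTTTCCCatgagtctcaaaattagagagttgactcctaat
Madcam1, chr10:79664309-79664558, plus strand: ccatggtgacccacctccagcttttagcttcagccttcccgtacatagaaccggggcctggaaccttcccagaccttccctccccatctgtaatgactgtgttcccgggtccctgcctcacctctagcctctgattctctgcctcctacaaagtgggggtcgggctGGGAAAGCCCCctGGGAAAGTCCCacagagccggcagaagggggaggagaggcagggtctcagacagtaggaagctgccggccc
Ldha, chr7:46845554-46845803, plus strand: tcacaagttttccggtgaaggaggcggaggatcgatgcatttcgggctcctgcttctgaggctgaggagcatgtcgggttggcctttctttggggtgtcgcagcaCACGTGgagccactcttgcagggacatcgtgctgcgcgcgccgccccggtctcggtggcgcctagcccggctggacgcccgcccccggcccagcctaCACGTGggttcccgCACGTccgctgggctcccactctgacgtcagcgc
Car9, chr4:43506776-43507025, plus strand: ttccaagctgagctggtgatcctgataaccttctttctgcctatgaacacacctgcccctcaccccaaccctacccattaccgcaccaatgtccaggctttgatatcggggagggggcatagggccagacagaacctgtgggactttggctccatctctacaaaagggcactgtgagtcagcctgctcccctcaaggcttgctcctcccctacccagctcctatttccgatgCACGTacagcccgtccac

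Lcn2 and Il6 held both the C/EBP and the NF-kappaB letters, Saa3 held the C/EBP letters alone, and Madcam1 held 4 NF-kappaB matches in overlapping pairs. The Saa3 window lies inside the annotated gene span, ahead of a start within it. The 2 CACGTG stretches of Ldha carry the hypoxia core on both strands. Across 15 acute-phase genes with a window, 14 of 16 windows (87.5%) held TTGCNNAA, against 9.6% of all 32851 windows. Across 28 hypoxia and glycolysis genes, 31 of 39 windows (79.5%) held ACGTG or GCGTG, against 38.6% of all windows. Both lists were written with earlier results of these data known, and the hypoxia motif was added after values were seen. Near-identical genes such as Saa1 and Saa2 count separately, so the windows are not all independent. Among the 12 genes most above TNF-alpha, 8 of 13 windows (61.5%) held the C/EBP letters and 8 of 13 the NF-kappaB letters. Saa1, Saa2, Saa4 and Vnn3 count in both this set and the acute-phase set. The C/EBP letters were in 2 of 12 windows (16.7%) of the 12 genes most below TNF-alpha. Among the leading opposite genes they were in 0 of 9 windows of those up and 1 of 7 of those down with IL-1beta. NF-kappaB letters were in 45.8% of all windows and thus mark few genes. A match describes letters and not a bound site.

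Of 18857 genes tested, 3656 (19.4%) were higher and 3856 (20.4%) were lower with IL-1beta than with TNF-alpha at an adjusted p under 0.05 (edgeR's quasi-likelihood test, Benjamini-Hochberg adjustment over all genes). At least 2-fold differences numbered 1030 higher and 1255 lower, and the median log2 difference over all genes was -0.0058. The 3 and 3 libraries did not overlap for 50.2% of genes. Scaled by library totals alone, the median moved by -0.1001 and the share of called genes that were higher fell to 34.9% (2674 higher and 4997 lower), against 48.7% with TMM (trimmed mean of M-values) scaling. Small differences near the threshold thus depend on scaling, and those described below are relative to the TMM reference.

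Each cytokine was also set against the same 3 controls. IL-1beta moved 3630 genes up and 3706 down (38.9% of those tested), and TNF-alpha moved 3348 up and 3442 down (36.0%). With library totals alone the TNF-alpha split became 4591 up and 2248 down (67.1% up, against 49.3% with TMM) with a median shift of 0.1087, whereas the IL-1beta split stayed at 3649 up and 3509 down (51.0% up, against 49.5%). Moved in opposite directions were 705 genes (3.74%). Of these, 368 (1.95% of genes tested) rose with IL-1beta and fell with TNF-alpha, and 337 (1.79%) fell with IL-1beta and rose with TNF-alpha. All 705 were also called in the direct comparison, in the order their signs fix. In 342 of the 368 and 312 of the 337 the 3 groups of libraries did not overlap at all. These genes were picked by both calls, which favors such separation, and the same count over all genes was not made. Changes reached 1.5-fold in both comparisons for 242 of them, 139 up and 103 down with IL-1beta, and 2-fold for 82, 49 up and 33 down with IL-1beta.

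**Figure D1:**
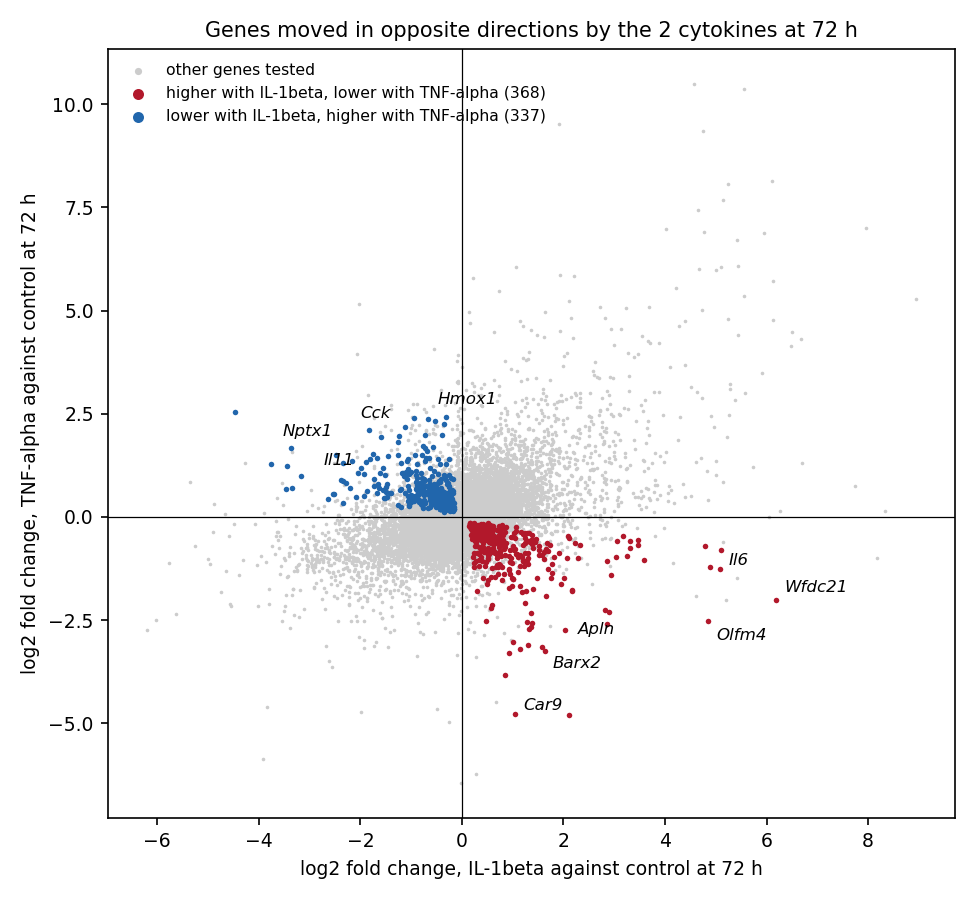
Log2 fold change of each tested gene with IL-1beta (x axis) and with TNF-alpha (y axis) against the same 3 controls at 72 h, with colours for the 368 genes that rose with IL-1beta and fell with TNF-alpha and the 337 that did the reverse. The coloured genes fill the lower right and upper left corners, with Olfm4, Wfdc21, Car9 and Barx2 far out at the lower right and Nptx1 and Cck at the upper left.

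The genes most above TNF-alpha included Vnn3, Saa1, Saa2 and Saa4 of the acute-phase and antimicrobial list, beside cytokine, adipocyte and other genes. Vnn3 (chr10:23851462-23869843 on GRCm38.p6, as for the genes below), a vanin that splits pantetheine, had 135, 125 and 121 CPM in the IL-1beta libraries, against 0.299, 0.162 and 0.208 CPM in the TNF-alpha libraries. The difference was 9.18 ± 0.24 on the log2 scale (adjusted p = 3.0e-25), about 579-fold in mean level, and no library of either group came near the other group. Saa2 (chr7:46751833-46754313) had 162, 159 and 123 CPM in the IL-1beta libraries, against 0.641, 0.595 and 0.208 CPM in the TNF-alpha libraries, a log2 difference of 8.20 ± 0.42 (adjusted p = 7.0e-18), and its neighbor Saa1 (chr7:46740497-46743181) had 233, 243 and 176 CPM in the IL-1beta libraries, against 2.61, 1.73 and 0.75 CPM in the TNF-alpha libraries, a log2 difference of 7.0 ± 0.36. Saa1 and Saa2 are near-identical serum amyloid A genes between which reads can be split, so their separate levels are uncertain. Saa4 (chr7:46727992-46732603), a constitutive serum amyloid in liver, differed by 6.13 ± 0.39, and by 7.01 without TNF-alpha library a. None of these 3 serum amyloids was called with TNF-alpha against control, and Saa1 averaged 1.7 CPM with TNF-alpha and 1.000 CPM in controls.

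Wfdc21, a secreted whey-acidic-protein domain gene, had 39.5, 31.4 and 39.3 CPM with IL-1beta, 0.214, 0.108 and 0.0417 CPM with TNF-alpha and 0.88, 0.329 and 0.248 CPM in controls. Olfm4 (chr14:80000302-80023141), a secreted glycoprotein known from neutrophils and gut stem cells, had 15.1, 15.9 and 18.4 CPM with IL-1beta, 0.0427, 0.162 and 0.0417 CPM with TNF-alpha and 0.831, 0.517 and 0.31 CPM in controls. Both thus stood above controls with IL-1beta and below them with TNF-alpha, by log2 4.85 and -2.52 for Olfm4. The TNF-alpha call of Wfdc21 was lost without TNF-alpha library b or c or control library a (adjusted p = 0.078 to 0.29). The direct Olfm4 difference was 7.37 ± 0.38, and 8.43 without TNF-alpha library b, since only 8 counts over the TNF-alpha libraries define the low level. Serpina3f (chr12:104214544-104221129), one of a cluster of near-identical serine protease inhibitors, differed by 6.89 ± 0.37 and shares that counting uncertainty.

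Cytokine genes in this set were Il6, Il12b and Tnfsf14. Il6, the inducer of the hepatic acute-phase response, had 40.8, 35.8 and 32 CPM with IL-1beta, 0.555, 0.325 and 0.500 CPM with TNF-alpha and 0.929, 0.753 and 1.61 CPM in controls. IL-1beta raised it by log2 5.09 ± 0.26, TNF-alpha lowered it by a log2 change of -1.26 ± 0.49 (adjusted p = 0.043, and 0.051 to 0.21 on leaving out any single TNF-alpha library or control library a or c, and 0.060 with library totals alone), and the direct difference was 6.34 ± 0.28 (adjusted p = 1.6e-19). Tnfsf14 (LIGHT, a ligand of the lymphotoxin receptor) had 129 counts over the IL-1beta libraries and 1 over the TNF-alpha libraries, a ratio of 177 with a 95% counting interval of 31.2 to 7037. Il12b, the shared subunit of IL-12 and IL-23, had 165 against 2 counts, a ratio of 113 (30.8 to 941). Both intervals cover counting error only, and the fitted differences moved with single libraries. Tnfsf14 moved to 8.55 without TNF-alpha library a and 6.30 without library b, and Il12b to 8.86 without library b. Adipoq (adiponectin) and Cidec (a lipid droplet protein) complete the 12 and are described with the adipocyte markers.

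At the other end, 6 of the 12 genes most below TNF-alpha were raised by TNF-alpha while their IL-1beta change against control was not called. Clec4e (chr6:123281789-123289871), the C-type lectin Mincle, had 0.301, 0.139 and 0.0429 CPM with IL-1beta, 33.1, 31.5 and 24.6 CPM with TNF-alpha and 0, 0 and 0.124 CPM in controls. Its direct log2 difference was -7.61 ± 0.31 (adjusted p = 2.4e-19), and -8.30 without IL-1beta library a, and the level with TNF-alpha was 867 times the control level with a 95% counting interval of 240.0 to 7167. Madcam1 (chr10:79664559-79668542), the ligand of the gut-homing integrin, had 0.0602, 0.139 and 0.171 CPM in the IL-1beta libraries, against 6.75, 9.14 and 8.33 CPM in the TNF-alpha libraries and no count in the controls. TNF-alpha libraries thus stood at least 159-fold above the controls, taking 3 counts over the group as the floor, and the direct difference was -5.91 ± 0.41 (adjusted p = 1.5e-13). U90926 and the collagenase gene Mmp1b also had no control count, and both were called as higher than control with IL-1beta too (adjusted p = 0.016 and 0.0024). Their TNF-alpha levels were at least 141-fold and at least 72.2-fold above control, and their direct differences -4.81 ± 0.44 and -4.60 ± 0.32, the second at -5.29 without IL-1beta library a.

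Il1f9 (IL-36 gamma), an epithelial alarmin, averaged 0.0772 CPM with IL-1beta and 4.14 CPM with TNF-alpha, a log2 difference of -5.58 ± 0.52 that came to -4.99 without IL-1beta library b and -7.02 without library c. Il1rl1, the receptor for IL-33, had 4.58, 2.96 and 3.21 CPM with IL-1beta, 77.5, 101 and 81.3 CPM with TNF-alpha and 4.01, 6.54 and 4.89 CPM in controls, and its direct difference was -4.62 ± 0.22 (adjusted p = 1.9e-18). Traf1, an adaptor of TNF receptors, had 0.723, 0.462 and 0.514 CPM with IL-1beta, 15.7, 16.8 and 14.8 CPM with TNF-alpha and 0.489, 0.564 and 0.433 CPM in controls. For both genes the IL-1beta and control libraries lay close together and the TNF-alpha libraries far above them. Cyp27b1, which activates vitamin D, differed by -4.98 ± 0.27 (-5.67 without IL-1beta library b). Against control it changed by log2 6.05 with TNF-alpha, and by 1.07 with IL-1beta, which was not called (adjusted p = 0.14).

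Another 3 genes of the 12 fell with IL-1beta and rose with TNF-alpha. Nptx1, a secreted neuronal pentraxin, had 0.241, 0.185 and 0.0857 CPM with IL-1beta, 4.1, 5.84 and 6.54 CPM with TNF-alpha and 2.3, 1.6 and 1.24 CPM in controls. Fgfbp1, a carrier that frees FGFs from matrix, differed by -5.03 ± 0.53 (-5.70 without IL-1beta library b). Ackr2, a decoy receptor that clears inflammatory chemokines, differed by -4.68 ± 0.50, with log2 changes against control of -3.45 with IL-1beta and 1.23 with TNF-alpha (adjusted p = 0.052 without TNF-alpha library a). The last of the 12, the cartilage matrix gene Matn1, fell in both and is given with the matrix genes.

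**Figure D2:**
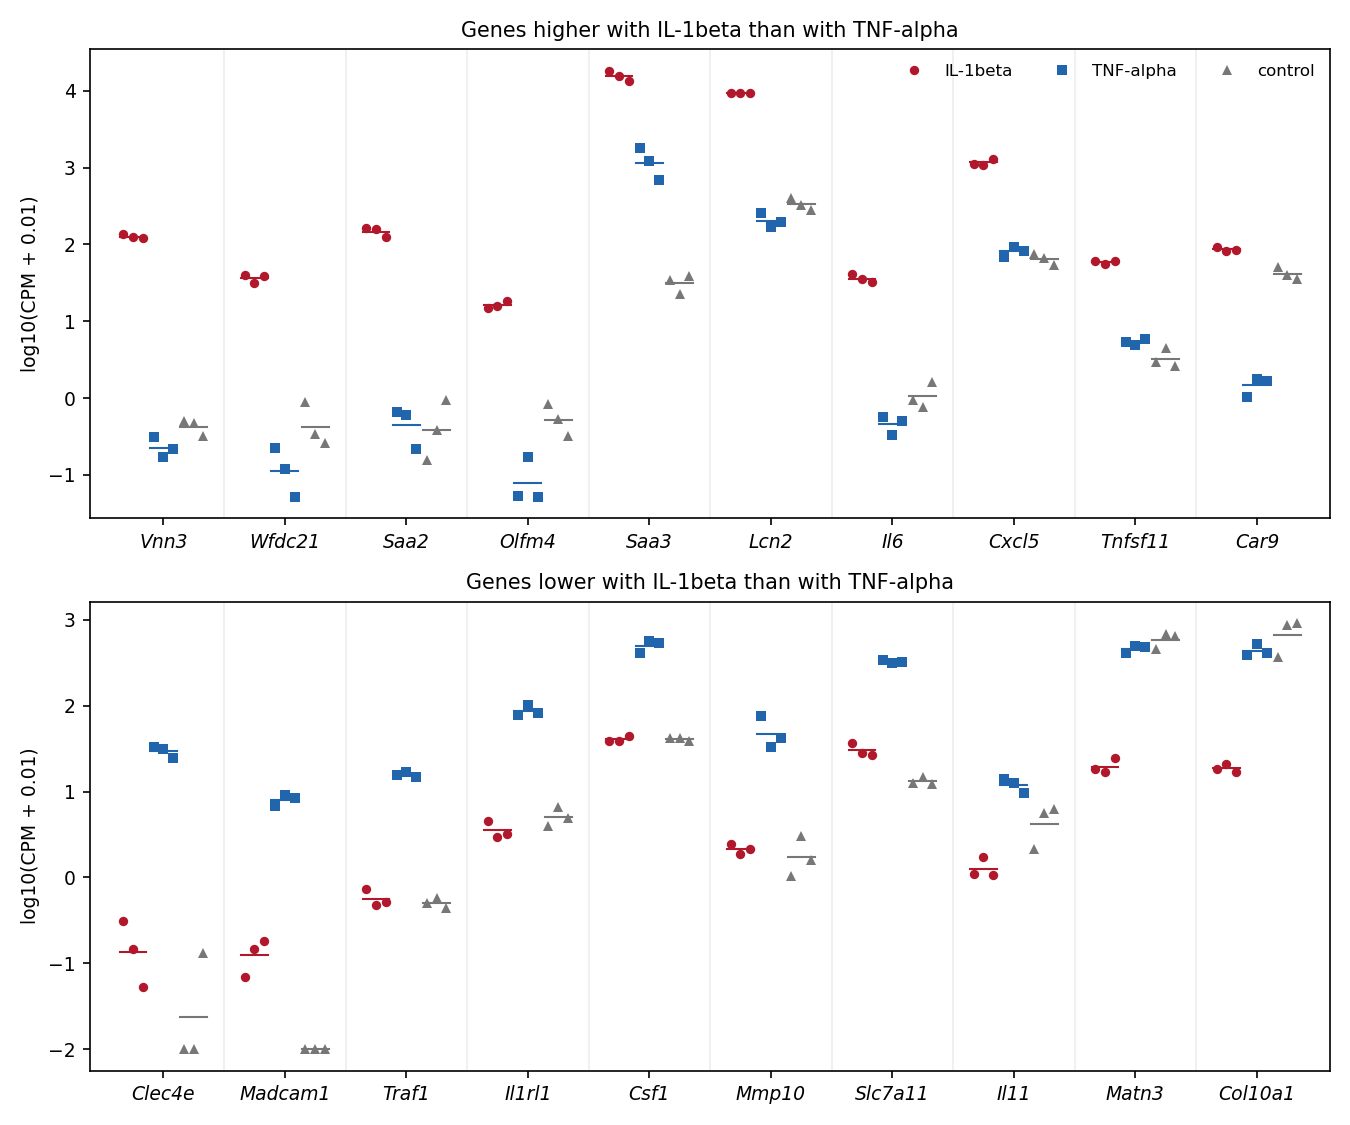
Level of 10 genes higher and 10 lower with IL-1beta than with TNF-alpha, as log10 of CPM plus 0.01, in the 3 IL-1beta, 3 TNF-alpha and 3 control libraries at 72 h (points, with bars at group means). IL-1beta and TNF-alpha points are separate for every gene drawn, and Csf1 and Traf1 show IL-1beta beside control with TNF-alpha far above.

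The 10 leading genes of each opposite direction were ranked by the smaller of their changes against the shared controls, whose noise enters both. Among those up with IL-1beta, Prss35, a serine protease, had 481, 408 and 459 CPM with IL-1beta, 14.3, 11.5 and 11.1 CPM with TNF-alpha and 65.5, 54.1 and 62.5 CPM in controls. Kcnn3, a calcium-activated potassium channel, changed by log2 2.82 ± 0.21 with IL-1beta and -2.24 ± 0.30 with TNF-alpha. Gpr35, an orphan-class G protein-coupled receptor, changed by 1.64 ± 0.19 and -3.25 ± 0.28, and Apln, the hypoxia-inducible peptide apelin, by 2.04 ± 0.16 and -2.75 ± 0.21. Barx2, a homeobox factor that acts with SOX9 in chondrogenesis, had 4.09, 4.67 and 3.13 CPM with IL-1beta, 0.214, 0.108 and 0.125 CPM with TNF-alpha and 1.12, 1.51 and 1.3 CPM in controls. Slc26a7, an anion exchanger, and Otor, a cartilage- and inner-ear-secreted protein, changed by 1.66 ± 0.23 and 1.95 ± 0.20 with IL-1beta and by -1.92 ± 0.30 and -1.61 ± 0.26 with TNF-alpha. In each of these genes the controls lay between the cytokine groups.

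Among those down with IL-1beta, Cck, the peptide hormone cholecystokinin, had 2.59, 1.11 and 2.87 CPM with IL-1beta, 41.9, 36.4 and 21.7 CPM with TNF-alpha and 6.21, 9.27 and 7.74 CPM in controls. Syt7, a calcium sensor of vesicle fusion, changed by -1.60 ± 0.27 with IL-1beta and 1.93 ± 0.19 with TNF-alpha. Il11, a cytokine of the IL-6 family, had 1.08, 1.71 and 1.07 CPM with IL-1beta, 13.9, 12.7 and 9.67 CPM with TNF-alpha and 2.15, 5.6 and 6.19 CPM in controls. Il11 was thus highest with TNF-alpha and lowest with IL-1beta, with no overlap between groups. Perp, a p53 target of desmosomes, changed by -1.66 ± 0.11 and 1.42 ± 0.10, and the myeloid-type receptor gene Cd300lb by -2.17 ± 0.22 and 1.36 ± 0.15. The enzyme genes Aldh1a7, Elovl7 and Acsbg1 fell with IL-1beta by log2 changes of -1.45, -1.90 and -2.33. With TNF-alpha they rose by 1.48, 1.32 and 1.30. The IL-1beta call of Aldh1a7 was lost without IL-1beta library c (adjusted p = 0.052).

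In the gene lists that follow, up to 4 called members with the smallest p are named by rule. Any further member was chosen as an example after its values were seen. The list counts are to be read beside the shares over all genes tested, 19.4% higher and 20.4% lower with IL-1beta directly. Against control, 38.9% of all genes were called with IL-1beta and 36.0% with TNF-alpha, in either direction. Hypoxia and glycolysis genes gave the most uniform contrast among the longer lists. Of the 29 listed and tested, 28 were higher with IL-1beta than with TNF-alpha and none was lower, with a median log2 difference of 1.62 and 21 at or above 2-fold. Against control, 20 rose and 2 fell with IL-1beta (median 0.44), whereas 28 fell and none rose with TNF-alpha (median -1.12), and 20 of the 29 were called in opposite directions. Car9, the hypoxia-induced carbonic anhydrase whose promoter is printed above, had 91.5, 82.3 and 85.2 CPM with IL-1beta, 1.03, 1.79 and 1.67 CPM with TNF-alpha and 50.4, 40.2 and 35.2 CPM in controls. Its direct difference was 5.81 ± 0.25 (adjusted p = 7.8e-20), made up of log2 1.04 ± 0.17 with IL-1beta and -4.77 ± 0.25 with TNF-alpha against control. Ldha, which makes lactate, had 1228, 1127 and 1139.6 CPM with IL-1beta, 277, 247 and 233 CPM with TNF-alpha and 578, 597 and 668 CPM in controls, and Slc16a3, which exports it, had 275, 247 and 258 CPM with IL-1beta, 35.5, 28.8 and 34.1 CPM with TNF-alpha and 177, 178 and 204 CPM in controls. For each of these genes the controls lay between the groups.

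Pdk1, which keeps pyruvate out of mitochondria, differed by 2.04 ± 0.078, the mitophagy gene Bnip3 by 2.73 ± 0.11, Pfkfb3, an activator of glycolytic flux, by 2.51 ± 0.10, and Vegfa, the angiogenic growth factor, by 2.10 ± 0.11. Mgarp and Ankrd37, further HIF-1 targets, differed by 4.67 ± 0.23 and 4.03 ± 0.27. Glycolytic enzymes with smaller differences were Pkm at 1.09 ± 0.067 and Hk2 at 0.60 ± 0.089, and Hk1 at 0.084 ± 0.08 was the only member not called (adjusted p = 0.44). Gapdh, Pgk1, Eno1 and Pgam1 have many processed copies in the mouse genome, so their counts may be split. The number higher was 27 or 28 and the number opposite 18 to 23 under all alternatives but the fit with the aberrant control column, where they were 22 and 8. Oxygen supply, glucose use and cell number in the constructs were not measured here, and in bulk tissue fewer cells of a type and less RNA per cell cannot be told apart.

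**Figure D3:**
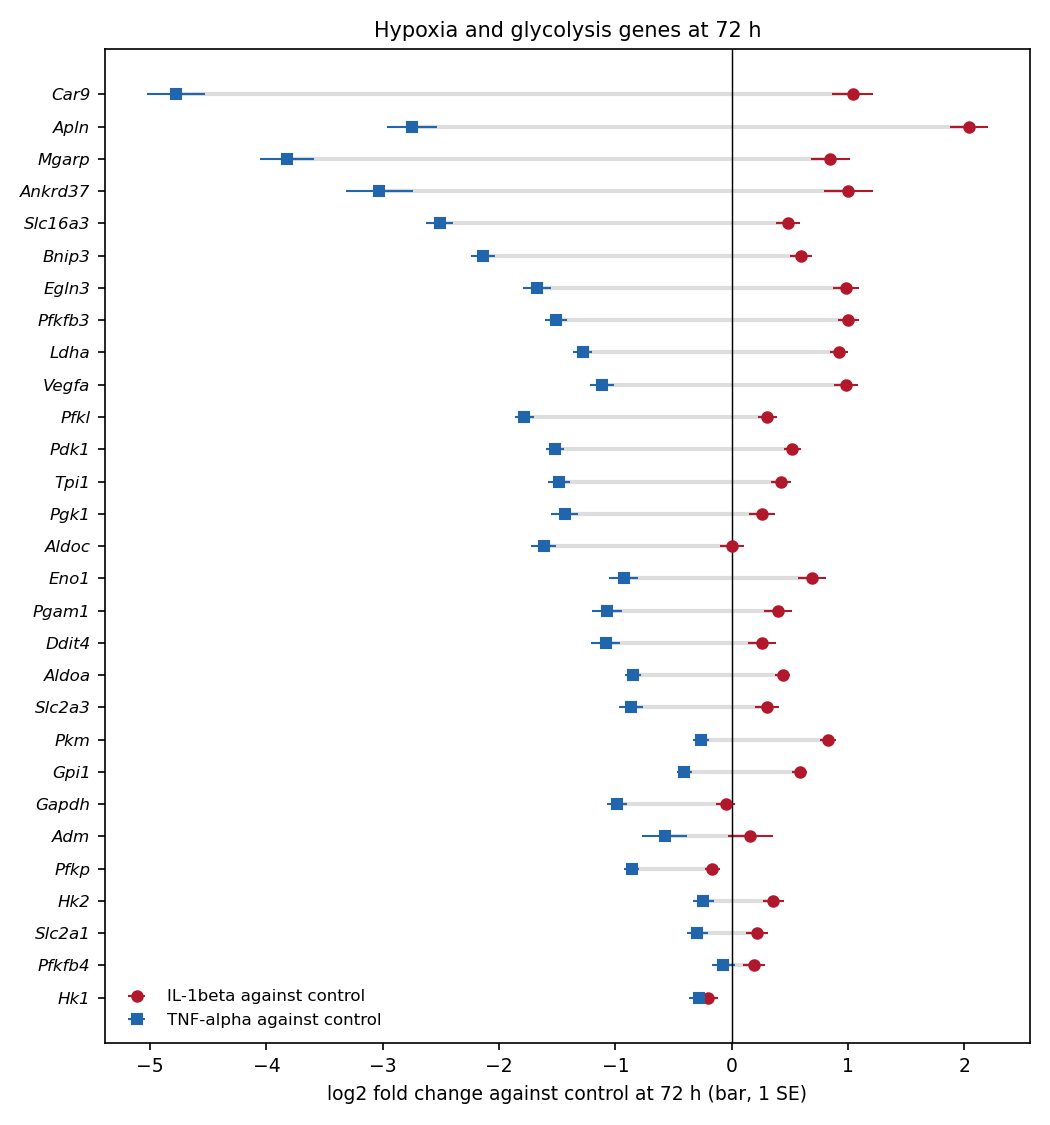
Log2 fold change against the same 3 controls of the 29 hypoxia and glycolysis genes with IL-1beta and with TNF-alpha at 72 h, with standard errors. IL-1beta points lie around or right of 0 and every TNF-alpha point lies left of 0, with Car9 at 1.04 and -4.77.

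Acute-phase and antimicrobial genes also leaned to IL-1beta. Of 17 tested, 15 were higher with IL-1beta and none lower, all 15 by at least 2-fold, with a median of 4.00. All 17 rose with IL-1beta against control (median 4.51), whereas 7 rose and 3 fell with TNF-alpha (median 0.33). Saa3 (chr7:46711998-46719615), the serum amyloid made outside the liver, had 18368, 15647 and 13248 CPM with IL-1beta, 1798, 1204 and 701 CPM with TNF-alpha and 34.7, 22.7 and 38.6 CPM in controls, a direct difference of 3.67 ± 0.35. Hp, the hemoglobin scavenger haptoglobin, had 19921, 17403 and 15961 CPM with IL-1beta, 1227, 1029 and 1064 CPM with TNF-alpha and 950.3, 600.4 and 786 CPM in controls, a difference of 4.00 ± 0.21. Lcn2, the siderophore-binding lipocalin, had 9457, 9244 and 9255 CPM with IL-1beta, 258, 167 and 198 CPM with TNF-alpha and 406, 324 and 278 CPM in controls, a difference of 5.49 ± 0.27. Saa3 rose strongly with TNF-alpha as well, whereas Lcn2 fell below control.

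Steap4, a metalloreductase, had 2449, 2374 and 2380.3 CPM with IL-1beta, 99.3, 90.1 and 100.2 CPM with TNF-alpha and 214, 195 and 187 CPM in controls, and Orm1, an orosomucoid with close paralogs, had 59, 58.1 and 49.8 CPM with IL-1beta, 1.07, 0.757 and 0.625 CPM with TNF-alpha and 3.08, 1.13 and 1.36 CPM in controls. Both were called in opposite directions, as Lcn2 was. The TNF-alpha calls of Lcn2 and Orm1 were lost without TNF-alpha library b or c or control library a (adjusted p = 0.052 to 0.11 for Lcn2 and 0.092 to 0.42 for Orm1), and that of Orm1 also with library totals alone (adjusted p = 0.053). Vnn1 differed by 2.91 ± 0.12 and Lbp, which presents lipopolysaccharide to CD14, by 1.78 ± 0.087. Slpi, a leukocyte protease inhibitor, averaged 480.1 ± 44.4 CPM with IL-1beta and 409.7 ± 179.5 CPM with TNF-alpha (SD, n = 3 each), and was not called (adjusted p = 0.52).

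Complement genes followed, with 11 of 17 higher and 2 lower with IL-1beta (median 1.58). C3 had 6830.1, 7025 and 6848 CPM with IL-1beta, 818, 1071 and 1084 CPM with TNF-alpha and 269, 202 and 187 CPM in controls, and C1ra, a protease of the classical pathway, had 213, 201 and 204 CPM in the IL-1beta libraries, against 29.4, 27.3 and 24.6 CPM in the TNF-alpha libraries. Serping1, the C1 inhibitor, and C4b, which has a near-identical copy, were higher by 4.15 ± 0.19 and 1.98 ± 0.11 and fell below control with TNF-alpha, a call that Serping1 lost without control library a (adjusted p = 0.066). The alternative-pathway gene Cfb and the classical-pathway gene C2 went the other way, at -0.64 ± 0.20 and -0.80 ± 0.20, though Cfb was not called without TNF-alpha library b (adjusted p = 0.082).

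The IL-6 family and the colony-stimulating factors also split. Csf1, the macrophage growth factor, had 38.9, 38.7 and 44.5 CPM with IL-1beta, 415, 560.2 and 537 CPM with TNF-alpha and 41.9, 41.5 and 38.9 CPM in controls, and its direct difference was -3.63 ± 0.12 (adjusted p = 3.4e-22). The IL-1beta libraries of Csf1 lay among the controls and the TNF-alpha libraries far above both. Lif, of the IL-6 family, differed by -2.46 ± 0.24 and Il11 by -3.22 ± 0.26. Csf3, the neutrophil growth factor, averaged 2.97 CPM with IL-1beta and 0.213 CPM with TNF-alpha, a difference of 4.00 ± 0.56 that became 5.75 without TNF-alpha library a and 3.20 without library b. In all, 3 of the 11 genes tested in this group were higher and 5 lower with IL-1beta.

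The neutrophil-attracting CXC chemokines, 5 of which were tested, split by member. Cxcl5 had 1131, 1099 and 1291 CPM with IL-1beta, 69.1, 93.9 and 82.7 CPM with TNF-alpha and 74.6, 66.2 and 53.5 CPM in controls and Cxcl1 had 609, 586 and 598 CPM with IL-1beta, 127, 98.7 and 112 CPM with TNF-alpha and 10.8, 9.88 and 9.16 CPM in controls, differences of 3.84 ± 0.21 and 2.41 ± 0.16. Cxcl2 and Cxcl3, ligands of the same receptor CXCR2, ran the other way at -2.95 ± 0.22 and -2.78 ± 0.22, with 25, 19.4 and 21.1 CPM of Cxcl3 with TNF-alpha. Among the other chemokines tested, 2 of 14 were higher and 8 lower with IL-1beta, and 6 to 9 were lower when single libraries were left out. Ccl5, a T cell and monocyte attractant, had 65.5, 49.3 and 57.7 CPM with IL-1beta, 242, 308 and 161 CPM with TNF-alpha and 1.03, 0.517 and 0.99 CPM in controls, and Ccl2, the main monocyte attractant, had 303, 263 and 309 CPM with IL-1beta, 794, 759.5 and 647 CPM with TNF-alpha and 15.6, 16.7 and 14.4 CPM in controls. Cxcl12, which retains CXCR4+ cells, had 608, 635 and 721 CPM with IL-1beta, 121, 145 and 164 CPM with TNF-alpha and 93.5, 74.9 and 63.7 CPM in controls. Both cytokines raised all 3 above control, Ccl5 and Ccl2 more with TNF-alpha and Cxcl12 more with IL-1beta. Cxcl16 and Ccl9 differed by -1.45 ± 0.14 and 2.24 ± 0.34. Adhesion molecules leaned to TNF-alpha, with 1 of 9 higher and 5 lower with IL-1beta, among them Icam1 at -1.44 ± 0.10, Mcam at -1.51 ± 0.16 and Jam2 at -0.85 ± 0.15. Vcam1 averaged 368 ± 25.4 CPM with IL-1beta and 467 ± 68.3 CPM with TNF-alpha (SD, n = 3 each) and was not called (adjusted p = 0.061).

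Receptors, adaptors and feedback genes of the cytokines' own pathways were affected in both directions. Il1r1, the signalling receptor of IL-1beta, had 132, 147 and 150.2 CPM with IL-1beta, 57.9, 57.5 and 57.3 CPM with TNF-alpha and 74.3, 67.8 and 62.9 CPM in controls and was called in opposite directions against control, but the TNF-alpha call was lost on leaving out any single TNF-alpha library or control library a or b (adjusted p = 0.065 to 0.19) and with library totals alone (adjusted p = 0.30). The antagonist Il1rn and the inhibitory kinase Irak3 were higher with IL-1beta by 1.92 ± 0.19 and 1.39 ± 0.13, and the IL-18 receptor subunit Il18rap lower by a log2 difference of -2.67 ± 0.23. Of 14 genes of the IL-1 pathway tested, 5 were higher and 5 lower (35.7% each). Of 19 genes of the TNF pathway, 8 (42.1%) were higher and 6 (31.6%) lower. Tnfsf11, which encodes the osteoclast-forming cytokine RANKL, had 60.9, 55.3 and 61 CPM with IL-1beta, 5.42, 4.98 and 5.79 CPM with TNF-alpha and 2.98, 4.47 and 2.6 CPM in controls, and Tnfrsf11b, its decoy receptor osteoprotegerin, had 24.3, 26.2 and 27.4 CPM with IL-1beta, 121, 111 and 108 CPM with TNF-alpha and 108, 139 and 131 CPM in controls. The direct differences were 3.46 ± 0.23 for Tnfsf11 and -2.12 ± 0.11 for Tnfrsf11b, and neither was called with TNF-alpha against control. Tnfsf15 (TL1A) and Traf2 were also higher with IL-1beta, by 3.71 ± 0.23 and 1.16 ± 0.085.

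NF-kappaB subunits and inhibitors rose with both cytokines, 14 of 17 in each comparison against control and none fell. Directly, 6 were higher and 5 lower with IL-1beta. Nfkbiz, a nuclear IkappaB needed for a subset of secondary genes, had 234, 214 and 219.9 CPM with IL-1beta, 54.9, 49.6 and 59.1 CPM with TNF-alpha and 43.3, 43.9 and 38.2 CPM in controls, and Bcl3, another nuclear IkappaB, differed by 1.77 ± 0.11. Nfkbie, a cytoplasmic inhibitor, was at -1.21 ± 0.16, and Nfkb1 at 0.45 ± 0.057. Nfkb2 averaged 68.9 ± 0.785 CPM with IL-1beta and 64.4 ± 3.14 CPM with TNF-alpha (SD, n = 3 each), a log2 difference of 0.10 ± 0.10 that was not called (adjusted p = 0.47).

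Genes of prostaglandin and nitric oxide synthesis were mostly lower with IL-1beta, 11 of 19, with 4 higher and a median of -0.36. Ptgs2, the inducible cyclooxygenase, had 46.6, 44.8 and 49.8 CPM with IL-1beta, 128, 105 and 122 CPM with TNF-alpha and 51.6, 70 and 71.9 CPM in controls, and was called in opposite directions, though its IL-1beta call was lost without IL-1beta library b or control library b or c (adjusted p = 0.063 to 0.081). Ptges, the terminal prostaglandin E synthase, had 182, 169 and 161 CPM with IL-1beta, 547, 480.1 and 490.2 CPM with TNF-alpha and 47, 53.4 and 52.9 CPM in controls, a difference of -1.57 ± 0.09. Ptgis, the prostacyclin synthase, was at -1.96 ± 0.09, and Ptges2 at 1.16 ± 0.076. Nos2, the inducible nitric oxide synthase, had 209, 195 and 192 CPM with IL-1beta, 88.9, 71.3 and 75.4 CPM with TNF-alpha and 2.54, 2.73 and 3.34 CPM in controls and was higher with IL-1beta by 1.34 ± 0.20, while Ass1, which recycles its product citrulline to arginine, was lower by a log2 difference of -2.08 ± 0.089.

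Oxidative stress genes rose chiefly with TNF-alpha: 19 of 23 tested rose and 3 fell with TNF-alpha against control, and 12 rose and 3 fell with IL-1beta. Directly, 14 were lower and 6 higher with IL-1beta. Slc7a11, the cystine importer, had 36.3, 28.4 and 26.7 CPM with IL-1beta, 339.5, 315 and 320.1 CPM with TNF-alpha and 12.4, 14.7 and 12.3 CPM in controls, a difference of -3.42 ± 0.12 (adjusted p = 3.7e-22). Hmox1, which breaks down heme, had 69.6, 65.5 and 67.9 CPM with IL-1beta, 412, 459 and 493 CPM with TNF-alpha and 82.7, 76.7 and 93.6 CPM in controls and was called in opposite directions, though its IL-1beta call was lost without IL-1beta library b (adjusted p = 0.058) or control library c (adjusted p = 0.089). The glutathione synthesis gene Gclm and the thioredoxin reductase Txnrd1 were at -2.32 ± 0.089 and -1.66 ± 0.068. Of these 4 genes IL-1beta raised Slc7a11 and Txnrd1, by 1.20 and 0.30, against 4.62 and 1.96 with TNF-alpha. Sod2, the mitochondrial superoxide dismutase and an NF-kappaB target, went the other way at 1.5 ± 0.087. The transcript of Nfe2l2, which encodes NRF2, averaged 100.2 ± 7.24 CPM with IL-1beta and 107 ± 1.06 CPM with TNF-alpha (SD, n = 3 each) and was not called (adjusted p = 0.36).

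Of 21 unfolded protein and integrated stress response genes, 11 were lower and 5 higher with IL-1beta, and 8 were called as falling with IL-1beta and rising with TNF-alpha. Those 8 were Atf4, Ddit3, Atf3, Trib3, Asns, Chac1, Psat1 and Mthfd2, which belong to the amino acid response that ATF4 drives. The IL-1beta call of Psat1 was lost without IL-1beta library a or b or control library a or b (adjusted p = 0.062 to 0.27) and with library totals alone (adjusted p = 0.050). Atf3 had 5.48, 7.35 and 8.44 CPM with IL-1beta, 45.3, 35.6 and 45.4 CPM with TNF-alpha and 20.4, 19.3 and 22.3 CPM in controls, and Atf4 itself differed by -0.87 ± 0.064. Trib3, Chac1 and Mthfd2 were at -1.88 ± 0.11, -2.50 ± 0.15 and -1.98 ± 0.094. The endoplasmic reticulum chaperones Hspa5 and Calr were slightly higher with IL-1beta, by 0.20 ± 0.057 and 0.39 ± 0.063, Hspa5 not with library totals alone. Sterol and fatty acid synthesis leaned the same way as the ATF4 genes, with 18 of 26 lower and 6 higher (median -0.79). Insig1 and Cyp51 were at -2.11 ± 0.11 and -1.55 ± 0.085, and Cyp7b1, an oxysterol hydroxylase, was higher by 2.44 ± 0.13.

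Cartilage matrix genes were lower with IL-1beta than with TNF-alpha almost throughout: 24 of 26 tested were lower, 21 of them by at least 2-fold, 1 was higher, and the median was -1.46. Both cytokines lowered them, 24 of 26 with IL-1beta (median -2.56) and 22 of 26 with TNF-alpha (median -0.97). Col2a1, type II collagen, had 9753, 9724 and 8644 CPM with IL-1beta, 18265, 21832 and 24183 CPM with TNF-alpha and 49641, 49893 and 64449 CPM in controls, a direct difference of -1.19 ± 0.17 (adjusted p = 4.1e-07). Acan, aggrecan, had 940.0, 892 and 898 CPM with IL-1beta, 2920, 3394 and 2645 CPM with TNF-alpha and 6155, 8160.5 and 8265 CPM in controls, a difference of -1.71 ± 0.14. For both genes the 3 groups were separate and IL-1beta was lowest. Matn1 and Matn3, matrilins that link collagen fibrils, had 1.69, 1.8 and 1.84 CPM in the IL-1beta libraries, against 39.5, 53.7 and 42.7 CPM in the TNF-alpha libraries, and 18.1, 16.9 and 24.4 CPM in the IL-1beta libraries, against 409, 489.8 and 479 CPM in the TNF-alpha libraries. Their differences, -4.67 ± 0.32 and -4.53 ± 0.19, and that of the proteoglycan Omd, -3.97 ± 0.28, were the widest of the list, and Fmod was at -1.51 ± 0.11.

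Prg4, the surface lubricant lubricin, was the exception against control, with 201, 147 and 162 CPM with IL-1beta, 491, 396 and 327 CPM with TNF-alpha and 98.5, 139.9 and 116 CPM in controls. It rose with both, less with IL-1beta. Chadl, a collagen-binding regulator, was the member higher with IL-1beta, at 0.40 ± 0.16 (adjusted p = 0.043), a call lost on leaving out any single IL-1beta library or TNF-alpha library a or c (adjusted p up to 0.21). Cilp averaged 285 ± 42.1 CPM with IL-1beta and 233 ± 54.3 CPM with TNF-alpha (SD, n = 3 each) and was not called (adjusted p = 0.059).

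Transcription factors and other regulators of chondrocytes were less one-sided. Of 20 tested, 5 were higher and 6 lower with IL-1beta. Sox9, the master regulator of the lineage, had 49.1, 46.3 and 44 CPM with IL-1beta, 54.3, 57 and 49.5 CPM with TNF-alpha and 114, 139 and 135 CPM in controls. Both cytokines lowered Sox9 and the direct difference of -0.21 ± 0.10 was not called (adjusted p = 0.1), though it was with library totals alone. Runx1 was higher by 1.59 ± 0.087 and Zbtb20 was at -0.55 ± 0.086. In the hypertrophy list, 4 of 13 were higher and 7 lower. Col10a1, the collagen of hypertrophic cartilage, had 18.1, 21.1 and 16.9 CPM with IL-1beta, 389, 526 and 408 CPM with TNF-alpha and 371, 874 and 917 CPM in controls, a difference of -4.56 ± 0.41, whereas Alpl, the mineralizing alkaline phosphatase, averaged 4.58 CPM with IL-1beta, 0.301 CPM with TNF-alpha and 1.04 CPM in controls. Ank and Enpp1, which supply the mineralization inhibitor pyrophosphate, were at -1.74 ± 0.12 and -0.92 ± 0.092.

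In the direct comparison fibrous matrix genes ran opposite to cartilage matrix genes, with 16 of 23 higher and 4 lower with IL-1beta (median 0.99). Against control, 11 rose and 7 fell with IL-1beta (median 0.22), whereas 4 rose and 14 fell with TNF-alpha (median -0.53). Col3a1 had 8430.5, 8217 and 8003 CPM with IL-1beta, 1799, 1700.3 and 1842 CPM with TNF-alpha and 4982, 3944 and 4927 CPM in controls, a difference of 2.21 ± 0.14, and Postn, periostin, had 4029, 3924 and 4156 CPM with IL-1beta, 875, 1092 and 918 CPM with TNF-alpha and 2054, 1804 and 1783 CPM in controls, a difference of 2.07 ± 0.14. Both rose with IL-1beta and fell with TNF-alpha. Col1a1 had 3485, 3523 and 4016 CPM with IL-1beta, 703, 994 and 888 CPM with TNF-alpha and 4659.9, 3820.1 and 4670.2 CPM in controls: its IL-1beta change against control, -0.25 ± 0.17, was not called (adjusted p = 0.26) and TNF-alpha lowered it by a log2 change of -2.35 ± 0.18. Fap and Col5a2 were higher by 1.68 ± 0.13 and 1.25 ± 0.09. Fn1, fibronectin, ran the other way with 14751, 12839 and 13345 CPM with IL-1beta, 32081, 28431 and 25264 CPM with TNF-alpha and 15288, 21653 and 21970 CPM in controls. All 7 imprinted transcripts tested, of the Dlk1-Dio3 and H19-Igf2 regions, were lower with IL-1beta (median -2.04), including Meg3 at -2.31 ± 0.13 and Rian at -2.07 ± 0.068, and both cytokines lowered all 7 against control.

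Of 29 metalloproteinases tested, 16 were higher and 9 lower with IL-1beta. Mmp13, the main collagenase of osteoarthritic cartilage, had 11319, 9767 and 9562 CPM with IL-1beta, 2306, 1345 and 1884 CPM with TNF-alpha and 296, 349 and 371 CPM in controls, a difference of 2.47 ± 0.14 (adjusted p = 2.4e-16). Mmp3, stromelysin, was close to level at 19251, 18426 and 18230 CPM in the IL-1beta libraries, against 15807, 13283 and 12898 CPM in the TNF-alpha libraries, a difference of 0.41 ± 0.12 (adjusted p = 0.0075, not called with library totals alone), against 268 CPM on average in controls. Mmp10 and Mmp12, stromelysin 2 and macrophage elastase, had 2.47, 1.85 and 2.14 CPM in the IL-1beta libraries, against 75.8, 33.4 and 41.9 CPM in the TNF-alpha libraries, and 5.84, 8.87 and 9.86 CPM in the IL-1beta libraries, against 137, 95.5 and 76 CPM in the TNF-alpha libraries. TNF-alpha raised Mmp10 by 4.71 on the log2 scale, whereas with IL-1beta it stood at 0.16 (adjusted p = 0.79). The aggrecanase Adamts4 was higher with IL-1beta by 1.26 ± 0.18. Adamts5 differed by 0.38 ± 0.15 (adjusted p = 0.042), a call lost on leaving out any single IL-1beta library or TNF-alpha library a or c (adjusted p up to 0.12). Among inhibitors, Timp3, which restrains aggrecanases, had 123, 122 and 122 CPM with IL-1beta, 900.2, 892 and 870.3 CPM with TNF-alpha and 658, 970.2 and 818 CPM in controls, a difference of -2.86 ± 0.14, and Timp1 was higher by 1.01 ± 0.15. The plasminogen activator Plau and its receptor Plaur were at -1.91 ± 0.12 and -2.01 ± 0.16, and Serpina3n at 1.51 ± 0.10.

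Growth factor pathways held members called in both directions, beside 19.4% higher and 20.4% lower over all genes tested. In the IGF and FGF list 9 of 23 were higher and 9 lower (39.1% each). Igf1, the anabolic factor of cartilage, had 185, 175 and 190.5 CPM with IL-1beta, 56.9, 55 and 45.1 CPM with TNF-alpha and 78.2, 68.2 and 66.2 CPM in controls, and its binding protein Igfbp4 had 1515, 1379 and 1527 CPM with IL-1beta, 282, 261 and 286 CPM with TNF-alpha and 533, 373 and 419 CPM in controls, both called in opposite directions. Fgf2 was higher by 1.04 ± 0.079 and Fgf1 lower by a log2 difference of -3.07 ± 0.36. In the WNT list 14 of 27 (51.9%) were higher and 7 (25.9%) lower. The WNT antagonist Sfrp1 had 54.1, 49.6 and 52 CPM with IL-1beta, 6.07, 6.55 and 4.75 CPM with TNF-alpha and 25.8, 17 and 15.5 CPM in controls, the ligand Wnt11 was at -2.90 ± 0.30 and the receptor Fzd8 at 1.53 ± 0.081. In the TGF-beta and BMP list 9 of 30 (30.0%) were higher and 10 (33.3%) lower, with a median of 0.015. The receptors Acvrl1 and Acvr1 were at 1.15 ± 0.10 and 1.05 ± 0.074 and Bmpr1b at -0.89 ± 0.092.

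Cell cycle genes were lower with IL-1beta in 19 of 29 cases and higher in 3 (median -0.59). Mki67, a proliferation marker, had 8.07, 10.1 and 6.82 CPM with IL-1beta, 16.5, 21 and 20.1 CPM with TNF-alpha and 12.8, 24.4 and 19.3 CPM in controls, so that the TNF-alpha and control libraries lay close together. Ccnd1, cyclin D1, differed by -1.59 ± 0.087 and the cell cycle inhibitor Cdkn1a by -0.86 ± 0.069, both called in opposite directions. The IL-1beta call of Cdkn1a was lost without IL-1beta library a (adjusted p = 0.052) or control library b (adjusted p = 0.11). Tyms, a thymidylate synthase, was higher by 0.92 ± 0.11.

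Interferon-stimulated genes showed few calls, 1 of 32 higher and 4 lower. Without IL-1beta library a the calls were 0 higher and 13 lower, without TNF-alpha library b they were 1 higher and 3 lower, and without IL-1beta library b they were 4 higher and 3 lower. Irf1, an NF-kappaB target, was lower by a log2 difference of -1.18 ± 0.16 and Gbp2, a guanylate-binding protein with close paralogs, by -1.42 ± 0.21. Ifit2 was at -1.35 ± 0.19. Of 18 MHC class I presentation genes, 9 were lower and 1 higher, and 5 to 10 were lower when single libraries were left out. Psmb10 and Tapbp were at -1.12 ± 0.18 and -0.72 ± 0.12, and B2m averaged 1872 ± 183 CPM with IL-1beta and 1609.8 ± 181 CPM with TNF-alpha (SD, n = 3 each) and was not called (adjusted p = 0.18). The part of the interferon-rich libraries in the MHC counts was not tested.

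**Figure D4:**
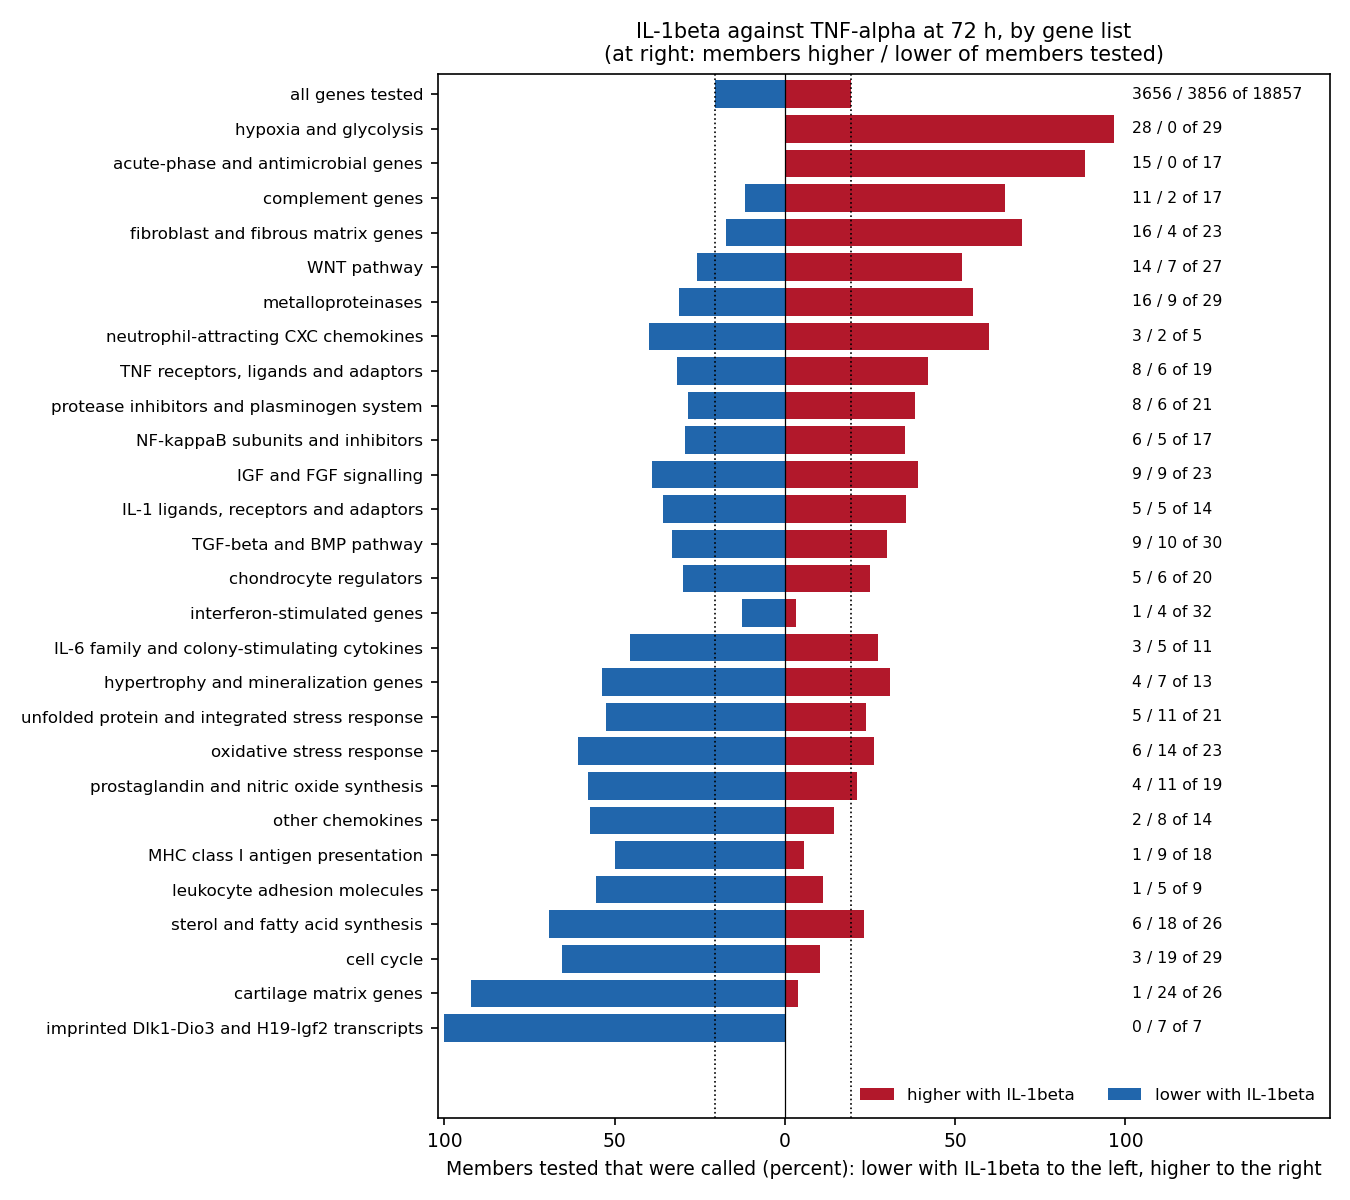
Share of tested members of each gene list that were higher or lower with IL-1beta than with TNF-alpha at 72 h, beside the same over all 18857 genes (19.4% higher, 20.4% lower). Hypoxia and glycolysis and acute-phase genes lie wholly on the higher side (28 of 29 and 15 of 17), and imprinted transcripts (7 of 7) and most cartilage matrix genes (24 of 26) on the lower side.

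Markers of other cell types were mostly scarce. The 16 leukocyte markers summed to 51.2 to 58.1 CPM with IL-1beta, 65.3 to 87.3 CPM with TNF-alpha and 35.2 to 38.5 CPM in controls. Of these 8 passed the filter, 2 higher and 2 lower with IL-1beta, and 9 of the 16 stayed under 1 CPM in all 9 libraries. Cd68, a lysosomal protein common in macrophages, had 8.91, 7.9 and 9.34 CPM with IL-1beta, 54.4, 40.7 and 46.4 CPM with TNF-alpha and 19.9, 17.5 and 18.1 CPM in controls and Lyz2 differed by 1.84 ± 0.30. Of the endothelial markers 1 of 4 tested was higher, of the muscle markers 1 of 3 was lower and of the neural markers 2 of 7 were lower. With so short lists these counts cannot be told from the shares over all genes tested, 19.4% higher and 20.4% lower. Epithelial markers summed to 0.602 to 1.29 CPM with IL-1beta, 1.25 to 1.62 CPM with TNF-alpha and 1.32 to 1.73 CPM in controls, and pluripotency markers to 0.462 to 1.07, 0.292 to 0.683 and 0.495 to 0.783 CPM. Endothelial markers summed to 96.5 to 102 CPM with IL-1beta, 81.9 to 88.9 CPM with TNF-alpha and 177 to 195 CPM in controls. Most of that came from Erg, which chondrocytes express, and 8 of the 10 stayed under 1 CPM in all 9 libraries. Osteoclast markers gave 3 higher and 2 lower calls of 6 tested, with sums of 701 to 779 CPM with IL-1beta, 671 to 765 CPM with TNF-alpha and 640.0 to 695 CPM in controls that were mostly Ctsk.

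Adipocyte markers differed by group. All 10 passed the filter, and 9 were higher and 1 was lower with IL-1beta (median 3.21), with sums of 728 to 756 CPM with IL-1beta, 305 to 400.0 CPM with TNF-alpha and 369 to 491 CPM in controls. Adipoq had 8.79, 5.59 and 6.99 CPM with IL-1beta, 0.214, 0 and 0.0417 CPM with TNF-alpha and 8.31, 3.76 and 5.32 CPM in controls, and Cidec had 5.0, 4.76 and 4.07 CPM with IL-1beta, 0.171, 0 and 0 CPM with TNF-alpha and 7.19, 2.4 and 4.33 CPM in controls. Both were thus near 0 with TNF-alpha, whereas the IL-1beta libraries overlapped the controls. The fitted differences of 6.52 ± 0.73 and 6.43 ± 0.88 rest on few counts with TNF-alpha, 6 for Adipoq and 4 for Cidec. Without TNF-alpha library a they were 8.32 for Adipoq and 9.66 for Cidec, and without library b 5.74 and 5.67. Pparg, the regulator of fat cell formation, had 4.09, 3.79 and 4.5 CPM with IL-1beta, 0.982, 0.92 and 1.54 CPM with TNF-alpha and 1.96, 1.32 and 2.04 CPM in controls and Plin1, a lipid droplet coat, differed by 3.68 ± 0.36, both called in opposite directions. The TNF-alpha call of Pparg was lost without TNF-alpha library a or b or control library a or c (adjusted p = 0.097 to 0.18) and with library totals alone (adjusted p = 0.081). Fabp4 made up most of the summed level and differed by 1.31 ± 0.16. The part of adipocyte-like cells in the contrast was not tested.

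More genes were called at 72 h than at 12 h or 24 h, and the 4 h libraries were not compared here. Direct calls numbered 887 higher and 1108 lower at 12 h, 1756 higher and 2034 lower at 24 h, and 3656 higher and 3856 lower at 72 h. Depth differed too: the cytokine libraries held 11163263 to 18923925 counts at 12 h, 21473899 to 30186404 at 24 h and 16311782 to 33497248 at 72 h. The part of depth in the numbers of calls was not tested. A difference that itself differed between 72 h and 24 h was called for 2994 genes (15.9%). In the hypoxia and glycolysis list the change was called for 27 of 29 genes, all upward. Car9 differed by log2 0.10 at 12 h, 0.97 at 24 h and 5.81 at 72 h, and Ldha by 0.0042, 0.76 and 2.21. Barx2, which was picked by its 72 h values, differed by 0.076, 0.17 and 4.74, and was called at 72 h but not at 12 h or 24 h. Other genes differed early, among them Il6 at 3.69, 5.98 and 6.34, for which the change from 24 h was not called (adjusted p = 0.71). Col2a1 differed by -0.13, -0.78 and -1.19, and Mmp13 by 0.51, 1.62 and 2.47. The groups of different times share no library.

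**Figure D5:**
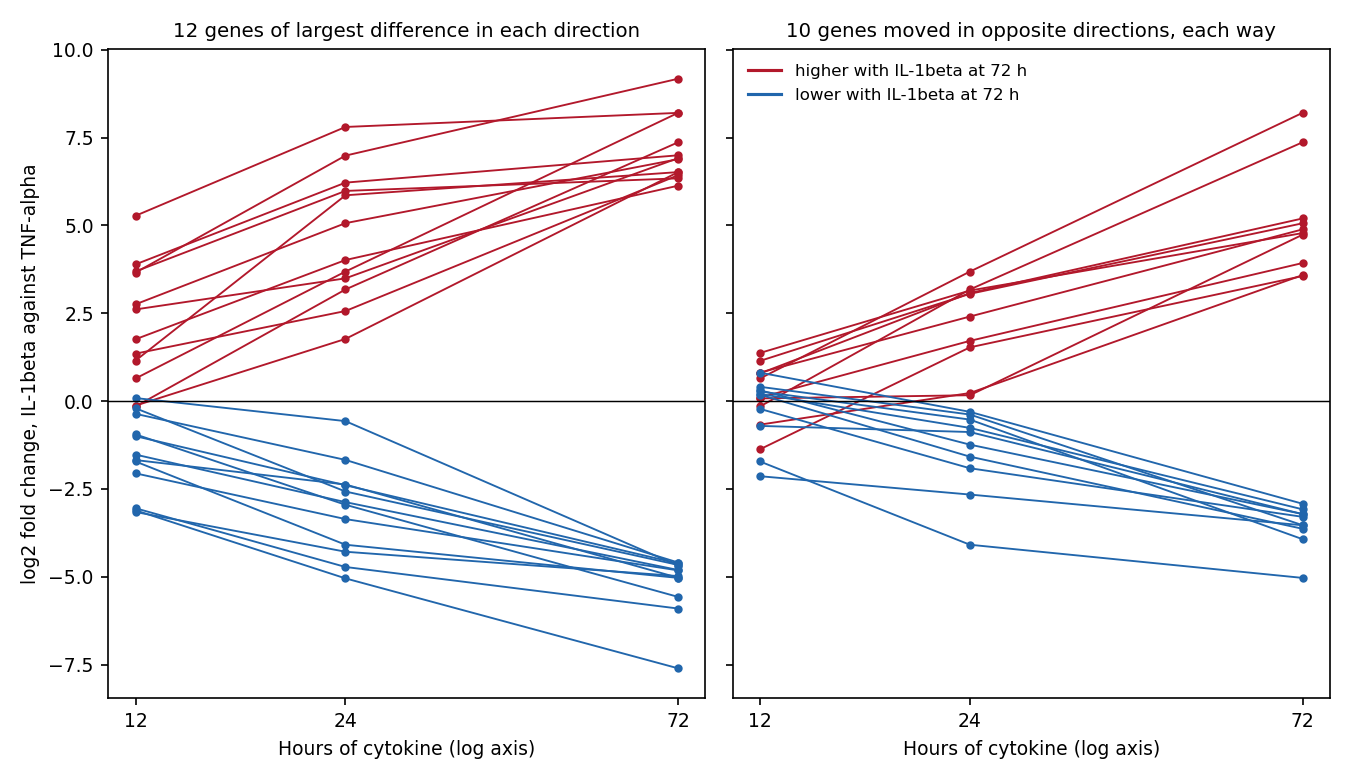
Log2 difference of IL-1beta against TNF-alpha at 12, 24 and 72 h (log time axis), each line a gene, for the 12 genes of largest difference each way (left) and the 10 leading opposite genes each way (right). The genes were chosen by their 72 h values, so the spread of the lines away from 0 at 72 h is favored by the choice, and several of the opposite genes, such as Barx2 at 0.17, lie near 0 at 24 h.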

How the data were processed

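The RNA was sequenced after ribosomal depletion (Ribo-Zero Gold), per the labels' protocols, and the authors deposited a table of whole-number counts per gene for 39 mRNA libraries, 3 in each of 13 groups. Per the submitters' processing notes, reads went through tools that include STAR, featureCounts, Trimmomatic and cutadapt with build mm10, but their versions, their roles and the strand setting are not stated there. Without a stated strand, reads of overlapping or antisense genes cannot be told apart. The table held 52459 named genes and 2199 nameless lines with no count in any library, which were left out. The gene length column and the small RNA table were not used here. The column of control 0 h replicate b held 220180 counts, reached at most r = 0.187 with its group and was left out, a decision made with its values known, so 38 libraries with 11163263 to 68655350 counts were fitted. Pairs of libraries within a group at 72 h differed by more than sampling noise (chi-square per degree of freedom 3.83 to 15.4).

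Genes were kept with edgeR's filterByExpr (minimum count 10, minimum total 15), leaving 18857 genes with 99.905% of counts. Counts were scaled by TMM (0.996 to 1.124 at 72 h), and CPM were computed from the scaled totals. A model with 1 coefficient per group was fitted over all 38 libraries with edgeR 4.0.16 in R 4.3.3 (quasi-likelihood F test, two-sided, Benjamini-Hochberg adjustment, threshold 0.05, biological coefficient of variation 8.26%). Standard errors are the absolute log2 fold change over the square root of F. On simulated data the fit recovered 96% of 100 genes changed 2-fold and 100% of 100 changed 4-fold, with 10 unchanged genes called among 18223. The changed genes had a mean CPM of at least 1 and went equally up and down, and all other genes were level across groups. The simulation thus does not cover scarcer genes, or scaling where many genes change. Alternatives were DESeq2 1.42.0, its size factors, library totals alone, no low-count filter, a replicate block, only the libraries compared, all 39 libraries and leaving out each library.

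Named genes are the 12 of largest difference each way with mean CPM of at least 1 and no overlap, the 10 opposite genes each way with the largest smaller change, and up to 4 called members per list with the smallest p. Systematic, clone and pseudogene names were left out, and a few genes that the rule or the lists hold are not reported here, though counts over lists and genes include them. Members and lists were chosen with earlier results of these data known. The hypoxia motif was added after values were seen. Promoter windows (32851 of 250 bases) were searched on both strands. Where a group had 3 or fewer counts, ratios carry exact 95% counting intervals or a floor of 3 counts over the group.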

Additional observations from a re-analysis of the deposited data

Results flagged for a closer look

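Among the 40 genes named for their size of difference or opposite directions and reported here, 30 had a difference between IL-1beta and TNF-alpha that itself differed between 72 h and 24 h by the interaction contrast of the same fit (adjusted p under 0.05). All 30 were wider at 72 h. Over all genes tested the contrast was called for 2994 (15.9%). Of the 2670 genes called both by it and directly at 72 h, 2594 were wider at 72 h. The values below are the log2 difference at 72 h minus that at 24 h, and the libraries of the 2 times are separate. The genes had been picked at 72 h, so a wider difference there is favored by the choice.

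Of the genes higher with IL-1beta, the widening was 2.19 for Vnn3, 4.52 for Wfdc21, 4.19 for Olfm4, 4.75 for Adipoq, 3.87 for Cidec and 2.12 for Saa4. Among the opposite genes of that direction it was 2.12 for Prss35, 2.01 for Kcnn3, 1.64 for Apln, 2.22 for Alpl, 3.36 for Slc26a7, 2.48 for Gpr35, 2.03 for Otor and 4.57 for Barx2. Barx2 and Slc26a7 stood near 0 at 24 h, at 0.17 and 0.23.

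Of the genes lower with IL-1beta, the value was -2.56 for Clec4e, -2.62 for Il1f9, -2.66 for Fgfbp1, -1.46 for Traf1, -1.93 for U90926, -4.11 for Ackr2, -2.09 for Matn1, -2.23 for Il1rl1 and -2.92 for Mmp1b. Among the opposite genes of that direction it was -3.41 for Cck, -2.62 for Aldh1a7, -2.32 for Perp, -1.98 for Il11, -3.15 for Cd300lb, -2.34 for Elovl7 and -2.05 for Acsbg1. The decoy receptor Ackr2 and the peptide hormone Cck were the most changed of these, with differences of -0.57 and -0.53 at 24 h.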

How the results depend on the processing

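Of the 2625 values of 202 named genes under alternatives, 2562 kept their direction and side of the threshold. Lost calls numbered 50, in 29 genes, and gained calls 11. Other list members were followed only in the counts of their lists. Of 70 named genes called in opposite directions, 19 lost a call against control on leaving out some single library, 20 in some alternative other than the fit of all 39 libraries, and 29 in that fit. Reversed values were Nfkb2 at -0.0048 and Hk1 at -0.016 with library totals alone, neither called. Library totals alone gave 2248 genes lower with TNF-alpha than in controls. Without a low-count filter 13 interferon-stimulated genes were lower and 4 leukocyte markers higher. Including the aberrant control column lowered most counts: 2037 higher and 2305 lower directly, 121 and 140 opposite, 922 for the change from 24 h, 2152 and 2132 for IL-1beta against control, 1825 and 1505 for TNF-alpha against control. In that fit the lists gave 4 TNF pathway, 3 NF-kappaB, 9 metalloproteinase, 2 protease inhibitor, 7 fibrous matrix, 8 WNT, 0 osteoclast and 0 endothelial genes higher, and 4 MHC, 12 cartilage matrix, 3 chondrocyte regulator, 5 TGF-beta and BMP, 1 neural and 4 chondrocyte marker genes lower. Leaving out single libraries gave 3231 to 3330 higher and 3367 to 3585 lower directly, 268 to 344 and 257 to 313 opposite, and 2508 to 2807 for the change from 24 h. The same gave 5 to 10 MHC genes lower (5 without TNF-alpha library b or IL-1beta library b), 3 to 13 interferon-stimulated genes lower (13 without IL-1beta library a) and 1 to 2 leukocyte markers higher (1 without TNF-alpha library b). The labels do not say whether the replicate letters pair the samples. Same-letter correlations of deviations from group means were -0.073 to 0.035, which cannot show that pairing is absent. The replicate block gave 3639 higher and 3825 lower, 360 and 331 opposite and 2938 for the change. It changed no count by over 1.5 times. DESeq2 gave 3540 higher and 3796 lower. The alternatives for the lists and the controls were chosen after seeing the data. The cause of these differences was not tested. Genes with a few counts in a group are limited by depth, and a missed call there does not show equality.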
